A study of Arabidopsis thaliana with 16 samples.

Results

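The 53 loci described here were chosen by measured values: each was at 2 FPKM or more in w5C6, the GFP positive cells of wox5 roots that carry the pCYCD6:GUS-GFP marker, and was listed at exactly 0 in the 3 other sorted populations. FPKM is a level of expression normalised to the length of the locus in kilobases and to the size of the library. The choice was made among 32654 nuclear loci with a single gene ID, of 33201 loci in the table. The members' high value in w5C6 and their zeros elsewhere are therefore a description of how they were selected, and nothing is tested with them.

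Seedlings of Arabidopsis thaliana were grown for 5 days, about 1 mm of root tip was protoplasted, and cells were sorted on GFP into 4 populations with 4 libraries each. C6 was GFP positive cells of pCYCD6:GUS-GFP, a marker of the cortex endodermis initials (CEI, the stem cells whose divisions give the cortex and the endodermis), and w5C6 was GFP positive cells of the same marker in the wox5 mutant. W5S and W5NS were the GFP positive and GFP negative cells of pWOX5:erGFP, in which GFP marks the quiescent centre. The marker is known to be active beyond the CEI in wox5 roots, so w5C6 need not hold the same cells as C6, and W5NS was not sorted against the CYCD6;1 marker. One pooled value per locus and population was available, so no spread between libraries is known and no difference below carries a test.

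The labels were checked against known genes first. WOX5, the homeobox gene that is mutated in w5C6 and marks the quiescent centre, was at 0.0865 FPKM in w5C6, 18.4 in C6, 42.1 in W5NS and 206 in W5S. CYCD6;1, the cyclin whose promoter drives the marker, was at 7.01 FPKM in w5C6, 9.75 in C6, 7.02 in W5NS and 0.828 in W5S. WOX5 was thus lowest in the mutant, while CYCD6;1 did not set either marker population apart from W5NS. SCR, a GRAS regulator of ground tissue, and AN3, a transcriptional coactivator, were at 47.6 and 161 FPKM in w5C6, 48.9 and 184 in C6, 17.4 and 26.8 in W5NS and 30.9 and 89.0 in W5S, so both were higher in the marker populations than in the others. Genes of nuclear photosynthesis stood out instead: the 72 genes summed to 8227 FPKM in w5C6, 383 in C6, 367 in W5NS and 393 in W5S. Of these genes 67 were higher and 5 lower in w5C6 than in C6, beside 18248 and 11311 of all 32654 loci. w5C6 also had the fewest loci listed at 0, with 3859 of the 32654, beside 5751 in C6, 5455 in W5NS and 8128 in W5S. The part that cell content or depth has in the members' detection was not tested.

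As background, most members with a known type come from short genes for RNAs that are not translated. A microRNA (miRNA) is cut from the hairpin of a longer primary transcript and guides cleavage of matching messenger RNAs. Box C/D small nucleolar RNAs (snoRNAs) guide methylation of the ribose in ribosomal RNA and are often encoded in clusters in plants, and transfer RNAs (tRNAs) carry amino acids to the ribosome. In such libraries, reads over a miRNA locus stand for transcripts that span the precursor, not for the mature miRNA.

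The 8 miRNA members are shown by their mature sequences, since these name the messenger RNAs they are known to guide to. Capitals mark the seed, bases 2 to 8 from the 5′ end. All sequences were read by locus from the RefSeq genome, assembly TAIR10.1.
miR160a-5p: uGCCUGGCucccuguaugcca
miR160a-3p: gCGUAUGAggagccaugcaua
miR395a: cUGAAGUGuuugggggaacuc
miR156e: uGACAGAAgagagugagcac
miR156g: cGACAGAAgagagugagcac
miR399a: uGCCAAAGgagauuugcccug
miR166c: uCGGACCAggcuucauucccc
miR771: uGAGCCUCugugguagcccuca
miR851-5p: uCUCGGUUcgcgauccacaag
miR851-3p: uGGGUGGCaaacaaagacgac
Of these only miR156e and miR156g shared a seed. They differ by U1C, given as the base of miR156e, the position from the 5′ end and the base of miR156g. The mature miR156e is also encoded by 5 other loci (MIR156a to MIR156d and MIR156f, 6 in all), miR160a-5p by 3 loci in all and miR166c by 7. The hairpins differ outside the mature part, and each of the 8 occurs once in the genome. The hairpins of the MIR160 and MIR395 members, which had the highest FPKM among the miRNA members, and of both MIR156 members are printed with the mature arms in capitals.
MIR160a: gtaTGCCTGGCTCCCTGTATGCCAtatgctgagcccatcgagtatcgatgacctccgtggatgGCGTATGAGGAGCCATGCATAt
MIR395a: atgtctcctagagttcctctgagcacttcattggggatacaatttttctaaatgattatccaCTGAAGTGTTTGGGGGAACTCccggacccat
MIR156e: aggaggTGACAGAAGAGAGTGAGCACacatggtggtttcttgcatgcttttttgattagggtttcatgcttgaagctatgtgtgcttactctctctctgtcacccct
MIR156g: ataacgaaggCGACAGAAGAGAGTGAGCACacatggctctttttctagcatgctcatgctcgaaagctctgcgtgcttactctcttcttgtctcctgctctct

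The members were 0.162% of the loci considered. The same rule turned round gave 22 loci for C6 (0.0674%), 21 for W5NS (0.0643%) and 19 for W5S (0.0582%), so w5C6 held more loci of this kind than any other population. With any value above 0 in place of 2 FPKM, 1028 loci were above 0 in w5C6 alone, 393 in C6 alone, 336 in W5NS alone and 129 in W5S alone. w5C6 thus came first at either threshold, and the members are the upper end of a larger set of loci that were above 0 in w5C6 alone. Of the 18726 loci at 2 FPKM or more in w5C6, 192 were at 0 in C6 (1.03%), 161 in W5NS (0.86%) and 427 in W5S (2.28%).

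**Figure D1:**
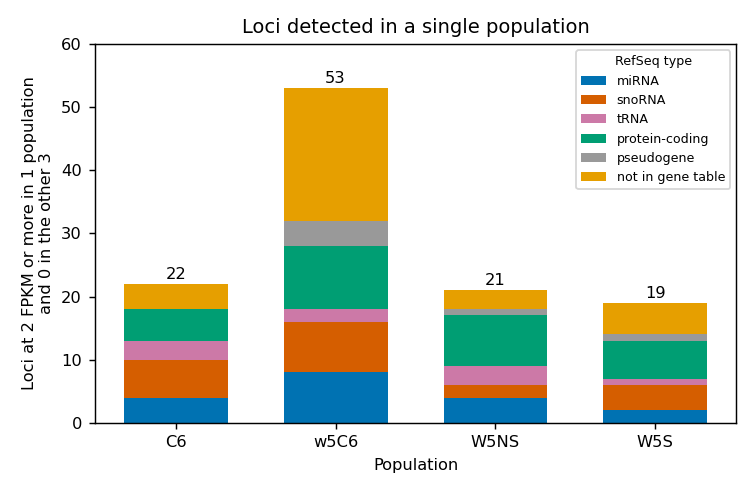
Number of loci at 2 FPKM or more in 1 population and listed at 0 in the other 3, for each population on the horizontal axis, with bars divided by RefSeq gene type. The bar of w5C6 reaches 53 loci, of which 21 are not in the gene table, and the bars of C6, W5NS and W5S reach 22, 21 and 19.

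By RefSeq type, the members were 8 miRNA, 8 snoRNA, 2 tRNA, 10 protein-coding and 4 pseudogene loci, and 21 had an ID that the TAIR10.1 gene table does not hold. miRNA, snoRNA and tRNA loci made up 18 of the 53 members (34.0%) but 852 of the 32654 loci considered (2.61%). Loci not in the gene table made up 39.6% of the members and 436 of all loci (1.34%). Protein-coding loci were 18.9% of the members and 80.1% of all loci, so the members were poor in ordinary protein genes. Among the loci of the other populations, these 3 small RNA types made up 13 of 22 in C6 (59.1%), 9 of 21 in W5NS (42.9%) and 7 of 19 in W5S (36.8%), and protein-coding loci made up 22.7%, 38.1% and 31.6%. Loci not in the gene table were 18.2%, 14.3% and 26.3% in C6, W5NS and W5S, so w5C6 had the highest share of these and the lowest share of the small RNA and of the protein-coding loci. Members lay on all 5 chromosomes, from 8 on chromosome 1 (15.1%, beside 25.3% of all loci) to 16 on chromosome 3 (30.2%, beside 20.2%).

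The values of the members in w5C6 ran from 2.09 to 21.3 FPKM with a median of 5.52. The highest were AT5G57181 (21.3 FPKM) and AT3G30849 (19.1 FPKM), neither in the gene table, followed by MIR160a (19.0 FPKM), the snoRNA locus AT2G35384 (17.3 FPKM) and the tRNA-Cys locus AT5G41265 (16.7 FPKM). Members of the 3 small RNA types were higher than the others on this scale: the medians were 7.24 FPKM for miRNA, 8.89 for snoRNA and 12.9 for tRNA members, beside 2.87 for protein-coding, 3.03 for pseudogene and 3.96 for members not in the gene table. At the threshold, the lowest members were AT1G36272 and AT1G23724, both at 2.11 FPKM, and AT4G09468 at 2.09 FPKM. The nearest loci below it with zeros elsewhere were AT2G15740 at 1.93 FPKM, AT5G55056 at 1.92 FPKM and the miRNA locus MIR169b at 1.89 FPKM, so no gap separated members from the loci just outside.

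**Figure D2:**
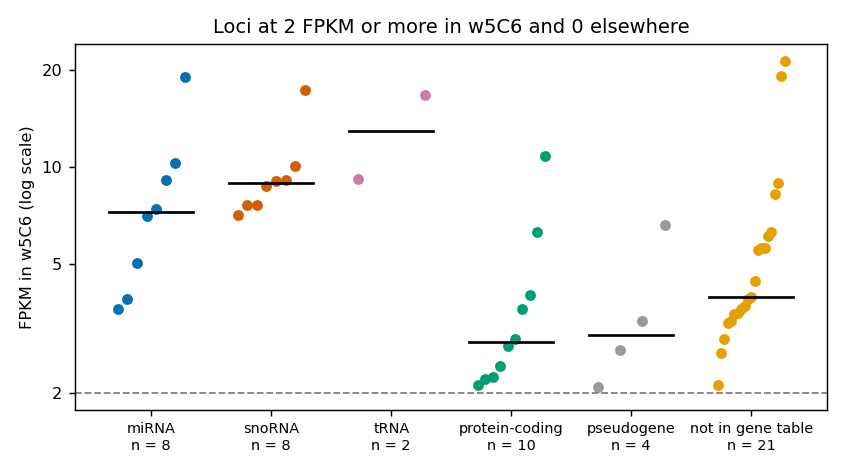
FPKM in w5C6 of the 53 members on a log scale, grouped by RefSeq gene type, with 1 point for each locus, a black line at the median of each type and a dashed line at the threshold of 2 FPKM. All 8 snoRNA members sit between 7.11 and 17.3 FPKM, while the protein-coding members sit between 2.11 and 10.8 FPKM.

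Length went with these values. The 32 members in the gene table had a median length of 107.5 bases, from 72 to 2655, beside a median of 2015 bases over the 32218 matched loci. Of these members 13 were shorter than 100 bases, the length of a read, 10 had at least 100 but under 150 bases, 7 had at least 150 but under 350 bases and 2 were longer than 1000 bases. Loci under 150 bases were 71.9% of the matched members and 2.82% of all matched loci. Among the 30 matched members under 350 bases, FPKM fell with length (Spearman rho = -0.71 across loci of the same pooled libraries, a description). FPKM divides by length, and after multiplying by RefSeq length the same relation was weaker (rho = -0.19).

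Any value above 0 put the shortest loci past the threshold. Of 702 loci under 100 bases, 28 were above 0 in w5C6 and all 28 were at 2 FPKM or more, the lowest at 4.87 FPKM. The same held for 20 of 20 such loci in C6 (lowest 4.53 FPKM), 16 of 16 in W5NS (lowest 3.86 FPKM) and 16 of 16 in W5S (lowest 6.60 FPKM). For loci under 100 bases the rule of 2 FPKM therefore asked for no more than detection. Among the 909 loci under 150 bases, 23 were members (2.53%), and 14 (1.54%), 15 (1.65%) and 10 (1.1%) met the turned-round rule for C6, W5NS and W5S. With FPKM multiplied by the RefSeq span in kilobases, the matched members ranged from 0.253 to 7.43 with a median of 0.717. On this scale 26 of the 32 were below 1. The span may differ from the length the authors divided by, so the scale is approximate. Only 3 matched members reached 2 on this scale: AT4G20250 at 7.43, AT2G27402 at 3.67 and AT3G04855 at 3.55.

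Several members had exactly the same value. AT2G23149, AT3G30705 and MIR166c were all at 3.64 FPKM, AT3G25233 and AT3G28918 both at 6.29 FPKM, and AT4G00124 and AT2G14206 both at 5.60 FPKM. AT3G30705 and MIR166c have RefSeq spans of 108 and 139 bases, so these spans need not be the lengths the authors used. MIR395a had the same 10.3 FPKM as AT3G61826, a locus with the same 93 bases that was also above 0 in W5NS and W5S. In all, 7 of the 53 members shared their value with another member, and over all loci above 0 in w5C6, 2.63% shared theirs with some other locus.

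**Figure D3:**
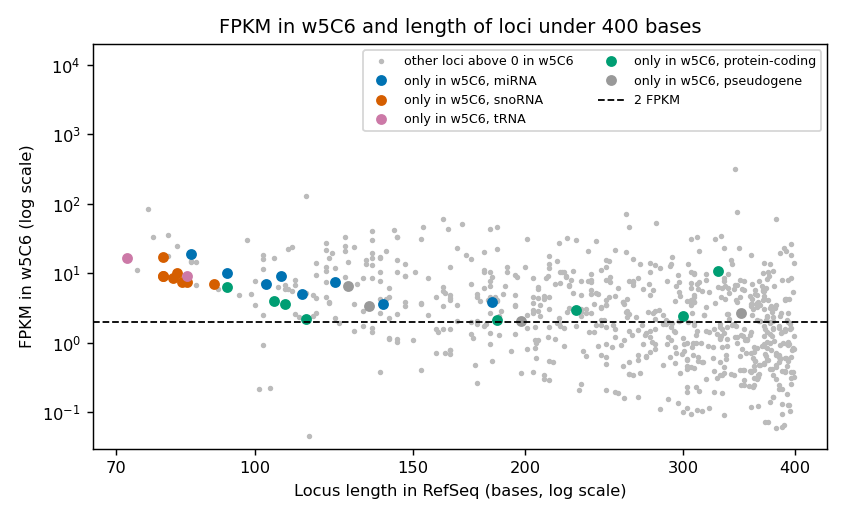
FPKM in w5C6 against RefSeq length, both on log scales, for matched loci under 400 bases, with members coloured by type, all other loci above 0 in w5C6 in light grey and the threshold of 2 FPKM as a dashed line. No locus under 100 bases lies under the line, and members lie among the other loci of their length.

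MIR160a was the highest miRNA member, at 19.0 FPKM in w5C6 and 0 in C6, W5NS and W5S. miR160 is known to guide cleavage of the messenger RNAs of ARF10, ARF16 and ARF17, auxin response factors that act in root cap formation among other processes. MIR160b and MIR160c, which encode the same mature miR160a-5p, were at 0 in all 4 populations, so the only MIR160 value in the series came from this locus. ARF10 was at 9.80 FPKM in w5C6, 12.3 in C6, 17.7 in W5NS and 13.8 in W5S. ARF16 was at 10.9, 14.8, 17.3 and 19.6 FPKM in the same order. ARF17 was at 2.80, 3.69, 3.79 and 2.72 FPKM. All 3 targets were lower in w5C6 than in C6 by values that could not be tested, beside 11311 of all 32654 loci. A relation of these 3 genes to MIR160a was not tested.

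MIR156e and MIR156g were at 9.13 and 7.06 FPKM in w5C6 and at 0 elsewhere. miR156 is known for holding back the SPL transcription factors and with them the change from juvenile to adult growth. Of the 8 MIR156 loci, 5 were at 0 in all populations, and MIR156c was low in w5C6 (0.227 FPKM), C6 (0.152 FPKM) and W5S (0.721 FPKM). MIR156g overlaps AT2G19420 on the opposite strand, a gene at 0.0858 FPKM in w5C6 and 0 elsewhere, and without strand their reads cannot be told apart. The 11 SPL genes listed as targets summed to 31.5 FPKM in w5C6, 20.2 in C6, 23.6 in W5NS and 27.1 in W5S. Of these, 9 were higher and 1 lower in w5C6 than in C6, beside 18248 and 11311 of all 32654 loci. The median difference of the SPL genes, w5C6 over C6, was 0.22 on the log2(FPKM + 1) scale, beside 0.06 over all loci. SPL6, the highest of them in w5C6, was at 12.9 FPKM there and at 6.66 in C6, 6.26 in W5NS and 4.47 in W5S.

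MIR395a was at 10.3 FPKM in w5C6 and 0 elsewhere, but other MIR395 loci were not particular to w5C6. miR395 is induced by sulphate starvation and guides cleavage of messenger RNAs for ATP sulphurylases, the first enzymes of sulphate assimilation. MIR395b was at 8.42 FPKM in C6, 5.09 in W5NS and 0 in w5C6 and W5S. MIR395c was at 13.0 FPKM in C6 and 7.86 in w5C6, and MIR395f at 8.81 in C6 and 2.37 in w5C6, both at 0 in W5NS and W5S. The mature miR395b, miR395c and miR395f are identical and differ from miR395a by A17G (the base of miR395a, the position, the base of the other).
miR395b: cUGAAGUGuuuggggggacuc
Summed over the 6 MIR395 loci, C6 was above w5C6, with 30.2 and 20.5 FPKM, beside 5.09 in W5NS and 0 in W5S. Of the 4 listed targets, 2 were higher and 2 lower in w5C6 than in C6, beside 18248 and 11311 of all 32654 loci. APS1, the ATP sulphurylase gene with the highest level of the targets, was at 244 FPKM in w5C6, 363 in C6, 300 in W5NS and 491 in W5S, while APS4, another ATP sulphurylase gene, was at 47.3 FPKM in w5C6 and 34.7 in C6.

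MIR399a and MIR166c were the other members with well known targets. MIR399a was at 7.42 FPKM in w5C6, and miR399 is made under phosphate starvation and guides cleavage of the messenger RNA of PHO2, which limits phosphate uptake. MIR399b was also above 0 in w5C6 (1.63 FPKM) and in W5NS (1.00 FPKM), and the other 4 MIR399 loci were at 0 in all populations. PHO2 was at 3.58 FPKM in w5C6, 3.42 in C6, 12.5 in W5NS and 4.65 in W5S, so W5NS was highest and w5C6 lay next to C6.

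MIR166c was at 3.64 FPKM in w5C6 and 0 elsewhere. miR165 and miR166 are made in the endodermis and move into the stele, where they limit the HD-ZIP III regulators of vascular patterning such as PHB. MIR166c was a minor part of its family: MIR166a was at 50.9 FPKM in w5C6, 10.2 in C6, 19.0 in W5NS and 10.5 in W5S, and MIR166e at 41.8, 10.3, 4.56 and 0 FPKM in the same order. The 7 MIR166 loci summed to 104 FPKM in w5C6, 23.8 in C6, 36.6 in W5NS and 16.9 in W5S. The family was thus highest in w5C6 through loci that were above 0 in other populations too. The 5 HD-ZIP III genes summed to 21.7 FPKM in w5C6, 24.0 in C6, 66.9 in W5NS and 48.7 in W5S. Of these genes 3 were higher and 2 lower in w5C6 than in C6, with a median difference of 0.23 on the log2(FPKM + 1) scale. Over all 32654 loci, 18248 were higher and 11311 lower, with a median difference of 0.06. PHB was at 8.42 FPKM in w5C6 and 6.46 in C6, and ATHB8, a gene of the procambium, was at 1.61 and 5.45 FPKM.

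MIR771 and MIR851 were at 5.04 and 3.90 FPKM in w5C6 and at 0 elsewhere. They are neighbours on the same strand with 118 bases between them. Over the families of the 8 members, 15 of 32 loci were above 0 in w5C6, beside 7 in C6, 6 in W5NS and 3 in W5S. The other populations' zeros at the 8 members, which are among these 15, were set by the rule, so no ranking is drawn from the families. In these families 15 loci were at 0 in all 4 populations. In the whole table, 94 of 170 miRNA loci were above 0 in w5C6, 77 in C6, 78 in W5NS and 55 in W5S. Over all miRNA loci, members included, w5C6 thus came first and W5S last. Loci of all types had the same order, with 88.2% above 0 in w5C6, 83.3% in W5NS, 82.4% in C6 and 75.1% in W5S. Of the 63 miRNA loci at 2 FPKM or more in w5C6, the 8 members were 12.7%, beside 4 of 51 in C6 (7.84%), 4 of 47 in W5NS (8.51%) and 2 of 35 in W5S (5.71%). Over loci of all types the same share was 0.283% in w5C6, 0.130% in C6, 0.125% in W5NS and 0.121% in W5S. w5C6 thus came first over all loci too, and its rank is not read as a trait of miRNA loci. Of 5 genes of miRNA processing, 2 were higher and 3 lower in w5C6 than in C6, and 3 were higher and 2 lower when the populations were scaled to a common upper quartile. Of all 32654 loci, 18248 were higher and 11311 lower, or 19255 and 10304 after scaling. DCL1, the enzyme that cuts the precursors, was at 2.12 FPKM in w5C6 and 2.51 in C6, and HYL1, its partner, was at 9.58 and 12.0 FPKM.

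**Figure D4:**
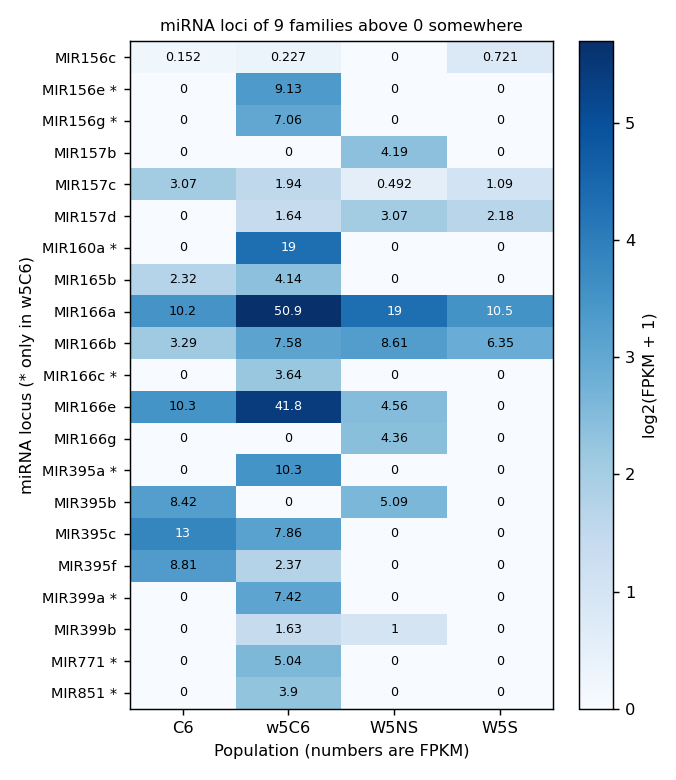
FPKM of miRNA loci of the members' families, and of the related MIR157 and MIR165 families that hold no member, that were above 0 in at least 1 population, in the 4 populations, coloured by log2(FPKM + 1) and with the FPKM printed in each cell. The 8 members, marked by asterisks, are filled in the w5C6 column alone, while MIR166a, MIR166b, MIR166e and MIR395c are filled in w5C6 and in other columns, and MIR395b is filled in C6 and W5NS only.

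The 8 snoRNA members are shown by 4 sequences. AT2G35384 and AT2G35387 are neighbours, AT4G13245 is the second highest snoRNA member, and AT2G43139 overlaps another gene. Capitals mark the first TGATGA, the usual C box, and the last CTGA, the usual D box, on the transcribed strand.
AT2G35384: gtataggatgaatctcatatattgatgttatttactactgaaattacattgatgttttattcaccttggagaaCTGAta
AT2G35387: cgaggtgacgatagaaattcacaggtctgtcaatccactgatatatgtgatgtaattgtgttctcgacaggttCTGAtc
AT4G13245: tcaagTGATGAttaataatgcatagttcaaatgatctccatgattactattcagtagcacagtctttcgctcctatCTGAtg
AT2G43139: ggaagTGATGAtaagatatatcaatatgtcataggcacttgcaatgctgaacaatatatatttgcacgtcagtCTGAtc
TGATGA was in 6 of the 8 members and in 143 of all 287 RefSeq snoRNA loci (49.8%), and CTGA in 8 and in 234 (81.5%). Only 70 snoRNA loci had values and could be members. No share over those 70 is given, so the contrast with all 287 is not read as a trait of the members. A TGATGA with a CTGA after it, without overlap, was in 6 of 8 members and 47.7% of all. On the opposite strand TGATGA was in none of the members and 3.48% of all, and CTGA in 4 members and 36.9% of all. The members thus carried the letters of box C/D snoRNAs, except that AT2G35384 and AT2G35387 lacked an exact TGATGA.

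AT2G35384 and AT2G35387 were at 17.3 and 9.06 FPKM in w5C6 and at 0 elsewhere, with 90 bases between them. Their neighbour AT2G35382, 93 bases from AT2G35384 on the same strand, was among the highest snoRNA loci in every population, with 85.6 FPKM in w5C6, 114 in C6, 152 in W5NS and 234 in W5S. The cluster was therefore above 0 in all 4 populations through AT2G35382, while AT2G35384 and AT2G35387 were listed at 0 outside w5C6. Another RefSeq snoRNA on the same strand, AT2G08725, lay 78 bases from AT2G35387 and had no value in the series. AT2G43139 was at 9.09 FPKM in w5C6, while AT2G43141, 85 bases away, was at 42.0 FPKM in C6 and 0 in the others, and AT2G43137 and AT2G43138 were at 0 throughout. AT2G43139 overlaps AT2G43110 on the same strand, a protein-coding gene at 79.5 FPKM in w5C6, 114 in C6, 67.3 in W5NS and 51.4 in W5S. Reads of both cannot be told apart where they overlap, so the value of AT2G43139 is uncertain.

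AT1G03743 was at 8.72 FPKM in w5C6, and its neighbour AT1G03746, 113 bases away, was at 10.1 FPKM in W5NS and 8.28 in W5S and at 0 in w5C6 and C6. A nearer RefSeq snoRNA on the same strand, AT1G04213, 65 bases from AT1G03743, had no value in the series. AT1G12015 was at 7.11 FPKM in w5C6, and SNOR111, 70 bases away, was at 7.14 FPKM in w5C6, 1.93 in C6, 4.51 in W5NS and 2.56 in W5S. AT1G03743 and AT1G03746 were thus above 0 in different populations, while AT1G12015 and SNOR111 were both above 0 in w5C6. These groups were shown because they hold members, which the rule sets to 0 outside w5C6. Some difference from their neighbours was therefore fixed by the selection. Another annotated snoRNA lay within 1000 bases on the same strand for 7 of the 8 members and for 60 of the 70 snoRNA loci in the table (85.7%). The remaining snoRNA members were AT4G13245 at 10.1 FPKM, AT5G58595 at 7.64 FPKM and AT5G13225 at 7.62 FPKM. AT5G13225 overlaps a long non-coding RNA gene on its own strand.

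Of the 70 snoRNA loci, 34 were above 0 in w5C6, 28 in C6, 21 in W5NS and 26 in W5S, and 20 of the 50 detected anywhere were above 0 in 1 population alone. Over all 32654 loci, 88.2% were above 0 in w5C6, 82.4% in C6, 83.3% in W5NS and 75.1% in W5S. Of these loci 1886 were above 0 in 1 population alone and 2570 in none. Among those at 2 FPKM or more, the members were 8 of 31 (25.8%) in w5C6, and loci met the turned-round rule in 6 of 25 (24.0%) in C6, 2 of 19 (10.5%) in W5NS and 4 of 22 (18.2%) in W5S. Over all loci these shares were 0.283%, 0.130%, 0.125% and 0.121% in the same order. Among loci under 150 bases of any type they were 19.7%, 15.2%, 16.0% and 15.4%. Detection in a single population was therefore common among snoRNA loci, as it was among short loci in general. Its share among snoRNA loci in C6 was close to that in w5C6. The core proteins of the box C/D particle were lower in w5C6 than in C6 in 5 of 5 genes, among them the methyltransferase gene FIB2 (336 against 473 FPKM). When the populations were scaled to a common upper quartile, 4 of 5 were lower. Of all 32654 loci, 11311 were lower, or 10304 after that scaling.

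**Figure D5:**
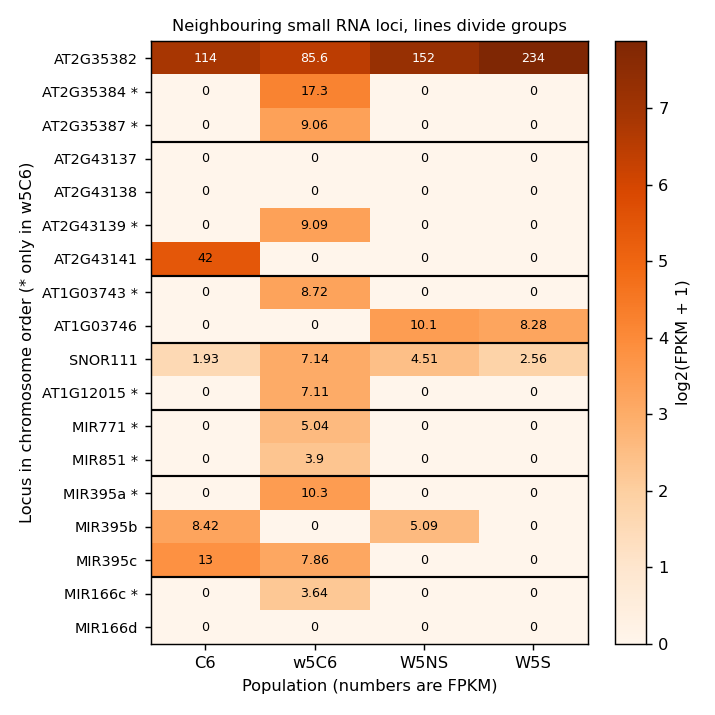
FPKM of members that have small RNA neighbours, in the 4 populations, coloured by log2(FPKM + 1) and with the FPKM printed in each cell. Rows are loci in chromosome order, lines divide the groups of neighbours and asterisks mark members. AT2G35382 is above 85 FPKM in every column beside 2 members that are at 0 outside w5C6.

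The tRNA members were the tRNA-Cys locus AT5G41265 (16.7 FPKM) and the tRNA-Leu locus AT4G11213 (9.20 FPKM). The first is shown because it was the highest locus of this type in w5C6.
AT5G41265: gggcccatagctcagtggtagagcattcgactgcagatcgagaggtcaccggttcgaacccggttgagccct
Of 612 tRNA loci, 602 were at 0 in all populations, 9 were above 0 in 1 population and 1 in 2. The 10 detected loci each had a sequence that occurs once in the genome, as against 95 of the 602 at 0 (15.8%). The members were the only tRNA loci above 0 in w5C6, and C6, W5NS and W5S each had other tRNA loci above 0 (4, 3 and 2 loci). AT4G11213 lay 267 bases from BTI2 on the same strand, a gene at 143 FPKM in w5C6 and 223 in C6.

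Of the 10 protein-coding members, 8 encode a protein that RefSeq calls uncharacterized. AT3G04855 (328 bases) was the highest at 10.8 FPKM, and its neighbour AT3G04854 on the opposite strand was at 3.30 FPKM in w5C6, 4.05 in W5NS and 0 in C6 and W5S. The others with a named product were AT4G08270, a glutathione S-transferase T3-like gene of 300 bases at 2.43 FPKM, and AT2G27402, annotated as a plastid transcriptionally active protein, at 2.25 FPKM over 1631 bases. AT4G20250 was the longest member (2655 bases, 2.80 FPKM) and overlaps PCAP1, a gene for a calcium-binding protein at the plasma membrane, on the opposite strand. PCAP1 was at 729 FPKM in w5C6, 506 in C6, 263 in W5NS and 297 in W5S. The counting is not stated to use strand, so reads of AT4G20250 and PCAP1 cannot be told apart.

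AT3G28918 is printed as an example of the short coding members, with its start and stop codons in capitals.
AT3G28918: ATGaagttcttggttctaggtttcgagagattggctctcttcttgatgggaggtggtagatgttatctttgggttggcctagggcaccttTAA
It has 31 codons with the stop and was at 6.29 FPKM. The short coding members AT3G19035 (105 bases), AT3G30705 (108 bases), AT5G62998 (114 bases) and AT1G36272 (186 bases) were at 4.03, 3.64, 2.22 and 2.11 FPKM. AT4G12731 (228 bases, 2.94 FPKM) lay 52 bases from FLA2, an arabinogalactan protein gene on the same strand at 131 FPKM in w5C6 and 90.6 in C6, and AT5G62998 lay 16 bases from AT5G63000, at 28.9 FPKM in w5C6 and 19.4 in C6. Over all types, 12 of the 32 placed members had a same-strand gene within 1000 bases that was above 0 in all 4 populations. Another annotated gene was overlapped by 4 members. Neither count was made over all loci, so neither is read as a trait of the members. Of all 32654 loci, 23151 were above 0 in all 4 populations.

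The 4 pseudogene members were AT2G06390 at 6.62 FPKM, AT1G32110 at 3.35 FPKM, AT3G46345 at 2.72 FPKM and AT4G09468 at 2.09 FPKM. Over the table, 470 of 4800 pseudogene loci were at 2 FPKM or more in w5C6, beside 179 in C6, 229 in W5NS and 151 in W5S. Pseudogenes were thus more often past the threshold in w5C6, and the members were 0.851% of those. Loci of all types were also most often past it in w5C6, with 57.3%, beside 51.9% in C6, 51.6% in W5NS and 48.1% in W5S. Members were 0.283% of all such loci in w5C6. The 21 members not in the gene table ran from 2.11 to 21.3 FPKM, with AT4G39986 at 8.89 FPKM and AT1G35461 at 8.23 FPKM next after AT5G57181 and AT3G30849, and no name or length is given to them. Of the 436 loci not in the gene table, 236 were above 0 in w5C6, 159 in C6, 186 in W5NS and 120 in W5S. The order over loci of all types was the same, with 88.2%, 82.4%, 83.3% and 75.1% above 0.

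No member belonged to any list of genes for shoot meristem and leaf, stomata, flower, seed, pollen, vascular tissue, endodermis and cortex, CEI and quiescent centre, or nuclear photosynthesis. These lists held 8 to 72 genes and the members were 53 of 32654 loci, so this absence is not read as a trait. The nearest were LHCB4.3, a light-harvesting gene at 1.32 FPKM in w5C6, CLV3, a shoot stem cell peptide gene at 0.717 FPKM, and FIL, a leaf polarity gene at 0.427 FPKM, all at 0 in the other populations and all below the threshold. The photosynthesis genes with the highest levels in w5C6 were above 0 in other populations: RBCS1A, a Rubisco small subunit gene, was at 1651 FPKM in w5C6, 4.51 in C6, 0 in W5NS and 0.169 in W5S. PSBR, a subunit of photosystem II, was at 447 FPKM in w5C6, 26.0 in C6, 25.5 in W5NS and 43.7 in W5S. Others missed the rule by small values only, such as LHCB2.1, a light-harvesting gene of photosystem II, which was at 80.7 FPKM in w5C6, 0.201 in C6, 0 in W5NS and 0.0429 in W5S. When up to 0.5 FPKM was allowed in each other population, 198 loci met the rule in w5C6, of which 128 were protein-coding and 6 belonged to the photosynthesis list, beside 52 loci in C6, 32 in W5NS and 28 in W5S. The rule of exact zeros thus left out protein-coding loci that were high in w5C6 and low, but not at 0, in the rest.

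The median difference of w5C6 over C6 on the log2(FPKM + 1) scale was 3.63 for nuclear photosynthesis, 0.64 for shoot meristem and leaf, 0.46 for stomatal, 0.33 for flower, 0.02 for seed, -0.09 for pollen, 0.10 for vascular, -2.29 for endodermis and cortex and -0.27 for CEI and quiescent centre genes, beside 0.06 over all loci. In the list of endodermis and cortex, 3 of 12 genes were higher and 9 lower in w5C6 than in C6, or 4 and 8 after scaling to a common upper quartile. Of all 32654 loci, 18248 were higher and 11311 lower, or 19255 and 10304 after that scaling. CASP1, a protein of the Casparian strip, was at 13.3 FPKM in w5C6 and 389 in C6, while the cortex markers CORTEX and CO2 were at 14.9 and 7.79 FPKM in w5C6 and at 5.10 and 7.44 in C6. The photosynthesis and the endodermis lists thus had the medians farthest from 0, on opposite sides, and the list of CEI and quiescent centre genes lay between. The part of these differences in the members was not tested. Among product families, the members fell only in that of uncharacterized or hypothetical proteins, with 10 of 7345 loci beside 53 of all 32654 (0.162%). That is near the share over all loci, and the 10 include the pseudogene loci AT2G06390 and AT3G46345. Kinases, transcription factors, F-box proteins, P450s, ribosomal proteins and the other families searched held none. Only 10 of 26168 protein-coding loci were members, and the largest of these families held 1340 loci. A family without members is therefore not read as a trait.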

How the data were processed

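RNA of sorted root tip protoplasts was made into SMART-Seq libraries, 4 libraries for each of 4 populations. Reads were single-end and 100 bases long. Per the study and the submitters' processing notes, the authors aligned reads with HISAT2 and quantified them with Cufflinks. The build, the annotation and tool versions were not given in the sources used here. Coordinates are therefore left out.

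The authors deposited 1 FPKM value per locus and population, pooled over libraries. The header names no unit, and FPKM was inferred from the pipeline. Depth per library is unknown, and neither counting intervals nor spreads can be given. Columns with fold changes and q-values of the authors' 6 comparisons were not used.

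Loci with several IDs (282) and organelle loci (265) were left out. IDs were matched to the RefSeq TAIR10.1 gene table (32218 of 32654 matched), which gave type, name and span. Spans may differ from the lengths the authors used. Differences are of log2(FPKM + 1). The selection step was checked on a constructed table with known members. The software was matplotlib 3.10.9, SciPy 1.17.1, NumPy 2.4.6 and pandas 2.3.3 under Python 3.11.15.

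Named loci were the 20 highest members, the 5 highest of each type, members with symbols or in runs of neighbours, those nearest the threshold and the highest list genes. The miRNA families, targets, processing and particle genes, neighbours, SPL6, APS1, APS4, PHB, ATHB8, CASP1, CORTEX, CO2, AT3G61826, AT3G28918, AT3G19035, AT3G30705, AT5G62998, AT4G12731, LHCB4.3, CLV3, FIL and LHCB2.1 were chosen after their values were seen. Members and lists were chosen with earlier results of these data known. Alternatives were thresholds, relaxed zeros, length or type limits, scaling and pseudocounts.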

Additional observations from a re-analysis of the deposited data

Results flagged for a closer look

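Among the 265 chloroplast and mitochondrial loci, which were left out of the selection, ATCG00960 met the same values, with 7.06 FPKM in w5C6 and 0 in C6, W5NS and W5S. It came up because the signal lies outside the loci considered and above the 0 of the other populations. Its value is the same as that of MIR156g. ATCG00100 met the turned-round rule for C6, with 24.4 FPKM.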

How the results depend on the processing

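Of the 53 loci, 28 were at 5 FPKM or more and 8 at 10 FPKM or more, and 89 loci met the rule at 1 FPKM. The count was 198 with up to 0.5 FPKM allowed elsewhere and 64 with up to 0.1 FPKM. It was 5 among loci of at least 300 bases and 10 among protein-coding loci. It was 6 where FPKM times RefSeq length in kilobases of 2 or more replaced the cut of 2 FPKM. Of these 6, AT1G40097, LHCB4.3 and AT4G20220 were below 2 FPKM and are not among the 53. Counting loci with several IDs or scaling to a common upper quartile left the count at 53. After seeing the data, loci of at least 200 bases (6 loci) and any value above 0 (1028 loci) were added. Under the same settings the highest count of any other population was 13 at 5 FPKM, 6 at 10 FPKM and 37 at 1 FPKM. With relaxed zeros it was 52 and 23, and among loci of at least 300 and 200 bases it was 2 and 3. It was 8 among protein-coding loci, 1 for FPKM times RefSeq length and 393 above 0. w5C6 thus stayed first in each, with small margins at 10 FPKM and among protein-coding loci. The share of miRNA, snoRNA and tRNA loci ran from 9.09% with up to 0.5 FPKM elsewhere to 62.5% at 10 FPKM. The median of the seed list went from 0.02 to -0.12 (log2) among genes at 1 FPKM or more, and the medians of the other 8 marker lists kept their sign. Some moved far: shoot meristem and leaf from 0.64 to 1.59 or 0.17 with pseudocounts of 0.1 and 5, and pollen from -0.09 to -0.73 with 0.1 and to -0.76 with the filter. The lists of miRNA targets, processing and particle genes were not run under these pseudocounts or the filter. No paired analysis was possible because no value per library was available, and leaving out single libraries was not possible for the same reason. The unknown depth of each library limits every zero: a locus listed at 0 may have been below detection.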
